A study of Mus musculus with 24 samples.

Results

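Mammary tumours of MMTV-PyMT mice were compared by how much mRNA of beta-casein (Csn2) they held. The libraries were ranked on Csn2 within each genotype label, and the 4 highest (Csn2-high) and 4 lowest (Csn2-low) of each label were taken, which gave 8 Csn2-high and 8 Csn2-low libraries of the 24 in the series. The unit was CPM, the reads of a gene scaled to the counted reads of its library. The 8 libraries between them, 4 of each label, were called middle. In this model the mouse mammary tumour virus promoter, which responds to steroid hormones, drives the polyoma middle T oncogene in mammary epithelium. The labels give 12 tumours as SHP knockout (NR0B2-/- PyMT+) and 12 as NR0B2+/+ PyMT+. Both groups carry the oncogene, and no treatment or age is given in the sources used here. Tumours were taken at a volume of 2000 mm3, and RNA was extracted from homogenised frozen tumour, so each library is a mixture of the cells in the piece. Whether each tumour came from its own mouse is not stated, so the spread behind each p-value is that of these tumours.

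Library totals ran from 18789250 to 27837999 counted reads in the Csn2-high class, from 18799631 to 30403961 in the Csn2-low class and from 22789193 to 38022182 in the middle class. Nr0b2, the gene named as deleted, had reads in each of the 12 libraries labelled KO (0.102 to 3.78 CPM). Among the 12 labelled WT it had reads in 1 (WT 24, 0.0397 CPM). The reads thus lay mostly in the group named as deleted. Gene counts do not show whether these reads come from an intact gene, and the genotypes were not tested. The groups are therefore called labelled KO and labelled WT. Epithelial markers were high in both classes: the summed level of 12 luminal epithelial genes ran from 5082 to 9289 CPM in Csn2-high libraries and from 4475 to 6635 CPM in Csn2-low libraries. In bulk tumour, fewer cells of a type and less RNA per cell cannot be told apart.

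Caseins are the main proteins of milk and are secreted by alveolar luminal cells. Their genes lie side by side, and in the lactating gland prolactin switches them on through the receptor Prlr and the transcription factor STAT5, which binds the palindrome TTCNNNGAA. Alpha-casein (Csn1s1), beta-casein (Csn2) and the gamma and delta caseins (Csn1s2a, Csn1s2b) carry calcium phosphate, and kappa-casein (Csn3) covers the surface of the casein micelle. In GRCm39, the build of the deposited counts, the cluster spans 266 kb of chromosome 5. Csn1s1 lies at 87814067 to 87830437 on the plus strand, Csn2 at 87840478 to 87847288 on the minus strand, Csn1s2a at 87922309 to 87936657, Csn1s2b at 87955980 to 87972280 and Csn3 at 88073438 to 88080409, these last on the plus strand.

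The promoters of the caseins that differed most between tumours are shown because they carry the STAT5 palindrome. Each is the RefSeq sequence from 250 bases before to 50 bases after the gene start, 5′ to 3′ on the strand of the gene, and the capitals mark TTCNNNGAA. The sequences come from GRCm38.p6, at chr5:87665958-87666257 (plus strand) for Csn1s1, chr5:87699376-87699675 (minus strand) for Csn2 and chr5:87774200-87774499 (plus strand) for Csn1s2a.
Csn1s1: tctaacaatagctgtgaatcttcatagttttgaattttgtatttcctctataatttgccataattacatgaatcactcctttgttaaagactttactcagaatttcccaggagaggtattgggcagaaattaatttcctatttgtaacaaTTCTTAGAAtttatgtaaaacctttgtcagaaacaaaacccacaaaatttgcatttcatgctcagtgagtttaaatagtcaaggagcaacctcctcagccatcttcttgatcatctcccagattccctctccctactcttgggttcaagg
Csn2: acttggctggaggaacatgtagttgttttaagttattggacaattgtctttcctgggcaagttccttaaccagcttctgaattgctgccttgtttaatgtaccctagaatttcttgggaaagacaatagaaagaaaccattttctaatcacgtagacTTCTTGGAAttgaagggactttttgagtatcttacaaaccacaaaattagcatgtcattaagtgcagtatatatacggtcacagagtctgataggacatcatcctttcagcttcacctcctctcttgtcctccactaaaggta
Csn1s2a: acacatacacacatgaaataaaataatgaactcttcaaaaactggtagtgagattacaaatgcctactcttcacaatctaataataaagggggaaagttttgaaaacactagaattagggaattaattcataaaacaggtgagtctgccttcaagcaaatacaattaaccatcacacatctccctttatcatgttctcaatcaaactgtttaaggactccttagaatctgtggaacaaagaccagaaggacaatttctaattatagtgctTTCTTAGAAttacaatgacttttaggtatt

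Only the fixed bases of the palindrome, TTC and GAA, read the same on both strands. The palindrome began 100 bases before the start of Csn1s1, 93 bases before that of Csn2 and 20 bases after that of Csn1s2a. It also stood in the promoter window of Glycam1, 145 bases before the start, and was not among the letters of the windows of Wap, Lalba, Olah, Fam20c and Tph1. Of the 11 genes looked up, 9 were found in the promoter table, and Csn3 and Csn1s2b were not. For comparison, 2726 of 32851 promoter windows of this length held it (8.30%). A match describes the letters in the window and is not a measured binding site.

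Csn2 itself, which set the classes, is given as a description. In the libraries labelled KO the Csn2-high class held 14732 CPM (KO 7), 281 (KO 12), 88.5 (KO 8) and 39.4 CPM (KO 2), and the Csn2-low class held 3.79 (KO 11), 1.81 (KO 3), 0.306 (KO 10) and 0.0329 CPM (KO 1). In the libraries labelled WT the Csn2-high class held 76.3 CPM (WT 17), 5.04 (WT 24), 3.92 (WT 22) and 3.49 CPM (WT 20), and the Csn2-low class held 1.22 (WT 19), 0.633 (WT 15), 0.219 (WT 23) and 0 CPM (WT 14). KO 7 stood far above every other library, with Csn2 alone taking 1.47% of its reads, while the low end was a handful of reads. KO 1 held 1 Csn2 read, and WT 14 held 0 of 22168963 reads, which allows up to 0.135 CPM (3 reads, counting error only).

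**Figure D1:**
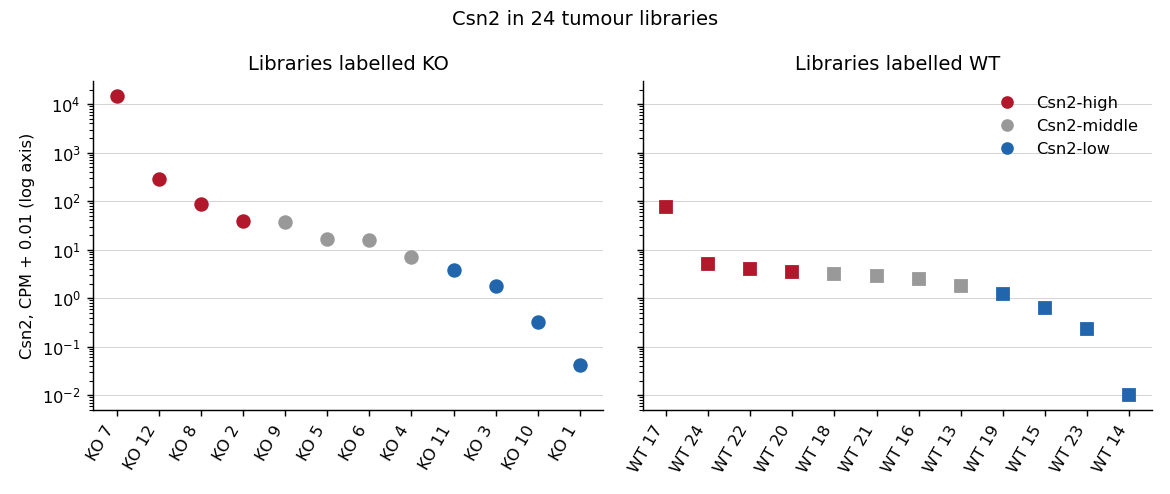
Csn2 level (CPM + 0.01, log axis) in each of the 24 libraries, ordered within each label, with colours for the Csn2-high, middle and Csn2-low classes. KO 7 stands at 14732 CPM, and WT 24, WT 22 and WT 20 of the Csn2-high class lie near KO 11 of the Csn2-low class, at 3.79 CPM.

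The class borders cut through neighbouring values. Just outside the Csn2-high class lay KO 9 at 38.0 CPM and WT 18 at 3.13 CPM. Just outside the Csn2-low class lay KO 4 at 7.22 CPM and WT 13 at 1.76 CPM. Because the ranking was made within labels, the classes overlap across them: KO 11, a Csn2-low library, had more Csn2 than WT 20, a Csn2-high library.

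The other 2 milk markers did not sort the libraries as Csn2 did. Csn1s1 had 15010 CPM in KO 7, 1727 in KO 12, 133 in KO 8 and 564 CPM in KO 2, against 49.6 in KO 11, 18.6 in KO 3, 16.8 in KO 10 and 13.2 CPM in KO 1. Among the libraries labelled WT it had 165 CPM in WT 17, 319 in WT 24, 256 in WT 22 and 10.9 CPM in WT 20, against 47.6 in WT 19, 18.2 in WT 15, 178 in WT 23 and 46.9 CPM in WT 14. In the libraries labelled KO the Csn1s1 values of the classes did not overlap. In those labelled WT they did, because WT 20 of the Csn2-high class was the lowest of these 8 and WT 23 of the Csn2-low class stood above WT 17.

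Csn3 ran from 6017 to 13958 CPM in Csn2-high libraries (median 11987) and from 3500 to 15173 CPM in Csn2-low libraries (median 12215). It was high throughout the series, with a 6.04-fold range over the 24 libraries, against 1381-fold for Csn1s1 and 278-fold for Csn1s2b. Without KO 7 the ranges were 6.04-fold for Csn3, 159-fold for Csn1s1 and 3.57-fold for Csn1s2b. Scaled by exon length as well (RPKM), the median library held 6408 for Csn3, 37.3 for Csn1s1, 5.26 for Csn1s2a, 3.17 for Csn2 and 2.16 for Csn1s2b. Ranking by Csn1s1 put 6 of the 8 Csn2-high libraries in its high class and 1 in its low class, and ranking by Csn3 put 2 of them in its high class and 1 in its low class. Of the 8 Csn2-low libraries, ranking by Csn3 put 3 in its low class and 3 in its high class. The libraries are therefore described as Csn2-high and Csn2-low, and not as high or low in milk genes.

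Of the remaining caseins, Csn1s2a was mostly higher in Csn2-high libraries, and Csn1s2b was raised in KO 7 alone. Csn1s2a had 7571 CPM in KO 7, 73.4 in KO 12, 33.9 in KO 8 and 8.19 CPM in KO 2, against 7.43 in KO 11, 3.78 in KO 3, 5.33 in KO 10 and 1.55 CPM in KO 1. Among the libraries labelled WT, Csn1s2a had 23.2 CPM in WT 17, 5.59 in WT 24, 2.26 in WT 22 and 3.26 CPM in WT 20, against 2.36 in WT 19, 1.38 in WT 15, 0.146 in WT 23 and 2.75 CPM in WT 14. The classes kept apart among the libraries labelled KO and overlapped among those labelled WT. The log2 fold change of Csn2-high over Csn2-low was 5.77 ± 1.89 (approximate SE), and 2.78 ± 0.65 without KO 7. Csn1s2b was at 212 CPM in KO 7 and between 1.28 and 1.87 CPM in the other 7 Csn2-high libraries, against 0.802 to 2.63 CPM in the Csn2-low libraries, so its log2 fold change of 2.47 ± 1.37 was −0.23 ± 0.24 without KO 7.

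**Figure D2:**
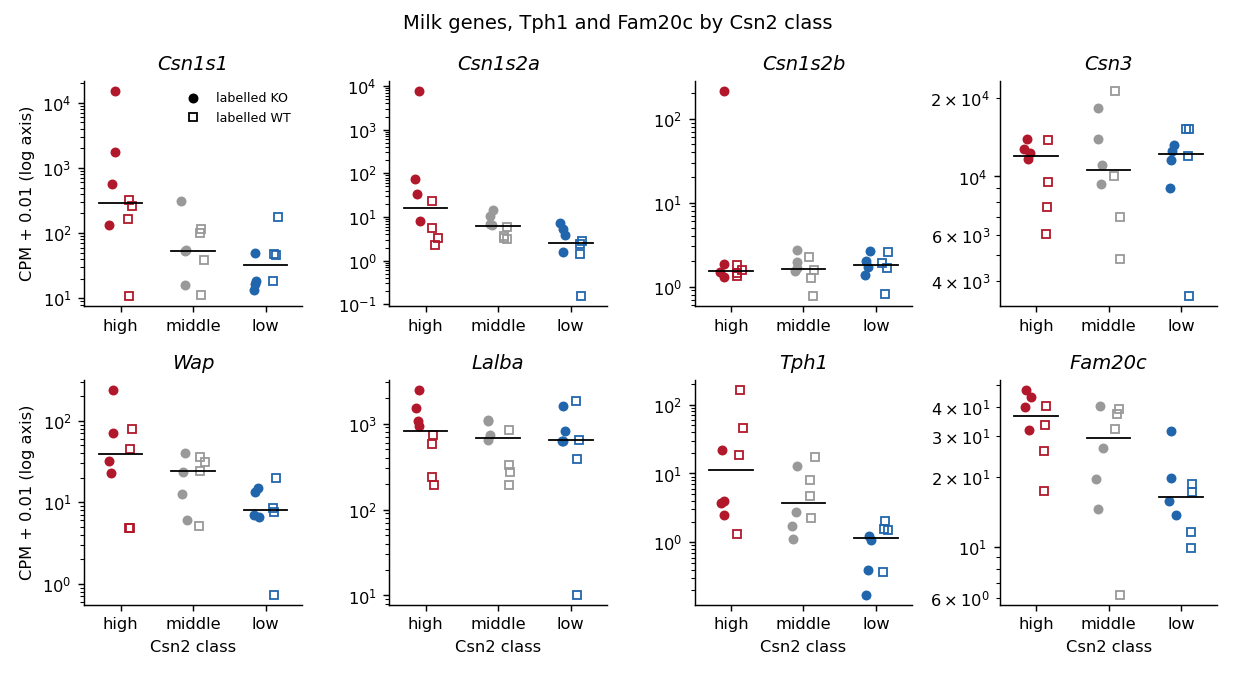
Level (CPM + 0.01, log axis) of 4 casein genes, Wap, Lalba, Tph1 and Fam20c in Csn2-high, middle and Csn2-low libraries, filled circles labelled KO and open squares labelled WT, with a bar at the class median (n = 8). Csn3 and Lalba overlap across classes, Csn1s2b is raised in KO 7 alone of the Csn2-high class, and 7 of 8 Csn2-high libraries lie above every Csn2-low library for Tph1.

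Across all genes, no gene passed between the Csn2 classes. The edgeR quasi-likelihood test with the genotype label as a block called 0 of 16501 genes (0.0%) at an adjusted p under 0.05. The smallest adjusted p was 0.951. Csn2, which set the classes and stayed in the fit, was not called either, so 0 calls do not show that the classes are alike. At an unadjusted p under 0.05 there were 283 genes higher in Csn2-high libraries (1.72%) and 195 lower (1.18%), 478 in all (2.9%). Not a gene of the 16501 had its 8 Csn2-high values all on the same side of its 8 Csn2-low values (0.0%). This count pooled the labels, while the classes were ranked within each label. Csn2 itself overlapped, with KO 11 (Csn2-low, 3.79 CPM) above WT 20 (Csn2-high, 3.49 CPM). The overlap count therefore does not show that the classes are alike either. Without KO 7 the edgeR test called 0 genes, with 420 at an unadjusted p under 0.05. limma voom called 0 genes, with 1249 at an unadjusted p under 0.05, and DESeq2 called 9 (0.0545%), with 610 at an unadjusted p under 0.05 (3.7%). The 9 were Tph1, Tmprss6, Fam20c, Gm4847, Gpa33, Csn1s1, Atp7b, Clca1 and Slc35f3, all higher in Csn2-high libraries. Csn1s1 counts there as a description, since it is a marker of the same ranking. Within the libraries labelled KO edgeR called 0 genes (1482 at an unadjusted p under 0.05), within those labelled WT 0 (388), and for the difference between the labels 0 (879). DESeq2 called 50, 7 and 23 genes in these comparisons.

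The genes named next did not pass the edgeR test at an adjusted p under 0.05, each with an adjusted p of at least 0.951, and their values are given as measurements. They were chosen by small unadjusted p or as members of gene lists. For those chosen by p, counts of libraries standing apart follow in part from the choice. The share of all genes with such counts is not given. The smallest p belonged to Tph1, tryptophan hydroxylase 1, the enzyme of serotonin synthesis outside the nervous system, which mammary epithelium also makes in lactation. It ran from 1.30 to 164 CPM in Csn2-high libraries (median 11.3) and from 0.164 to 2.03 CPM in Csn2-low libraries (median 1.15). In 7 of 8 Csn2-high libraries it lay above every Csn2-low library, and WT 20 was the exception. The log2 fold change was 4.51 ± 0.85 (approximate SE), 3.56 within label KO and 5.38 within label WT, and the highest value was in WT 17.

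Fam20c, the Golgi kinase that phosphorylates caseins and other secreted proteins, came next. It ran from 17.4 to 47.4 CPM in Csn2-high libraries (median 36.7), against 9.84 to 31.7 CPM in Csn2-low libraries (median 16.4). Here 6 of 8 Csn2-high libraries lay above the highest Csn2-low library, and the log2 fold change was 1.07 ± 0.21, nearly the same without KO 7 (1.04 ± 0.23). Olah, the thioesterase that releases medium-chain fatty acids for milk fat, was at 0.337 to 6.03 CPM in Csn2-high libraries and 0.119 to 0.964 CPM in Csn2-low libraries, with a log2 fold change of 1.96 ± 0.46. Gm4847 had a log2 fold change of 4.82 ± 1.11, and Tmprss6, a membrane serine protease that lowers hepcidin in liver, 3.02 ± 0.70.

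Of 18 genes on the list of caseins and whey proteins, 15 were tested besides the 3 markers, and 13 had a positive and 2 a negative log2 fold change, and the median was 0.42, against −0.0045 over all tested genes. In all, 5 of them had an unadjusted p under 0.05, all higher (background 1.72%). Wap, whey acidic protein, ran from 4.82 to 239 CPM in Csn2-high libraries (median 38.8) and from 0.729 to 19.7 CPM in Csn2-low libraries (median 8.08), with a log2 fold change of 2.56 ± 0.74. WT 17 and WT 20 lay below the Csn2-low median, and the other 6 lay above every Csn2-low library. Lao1, an L-amino acid oxidase of mouse milk, had a log2 fold change of 2.36 ± 0.69, and Cel, the bile salt-stimulated lipase of milk, 1.15 ± 0.42. Lalba, the lactose synthase subunit alpha-lactalbumin, had medians of 826 CPM in Csn2-high and 640 CPM in Csn2-low libraries and a log2 fold change of 0.048 ± 0.64. Glycam1, a mucin-like milk protein, reached 8892 CPM in KO 7 and had medians of 2.51 CPM in Csn2-high and 2.48 CPM in Csn2-low libraries, and its log2 fold change of 3.17 ± 2.44 was −0.21 ± 1.15 without KO 7.

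The log2 fold changes of the genes for milk fat and sugar were less spread. They ran from −1.48 to 1.03 for the milk fat globule list and from −0.41 to 1.18 for lactose and transport. For the caseins and whey proteins they ran from −0.47 to 5.77. Single libraries still stood out, with Fabp3 at 28.7 CPM in KO 7, and Cidea at 101 and Cd36 at 297 CPM in KO 11. The 10 tested genes of the milk fat globule and lipid droplet had a median log2 fold change of 0.29, and Btn1a1, butyrophilin of the globule membrane, had 1.03 ± 0.47 and 0.37 without KO 7. The 16 genes of lactose synthesis and milk transport had a median of 0.040, and Slc30a2, which carries zinc into milk, had 1.18 ± 0.48. For fatty acid and triglyceride synthesis the median of 20 genes was −0.17, with 15 negative, and Scd1, which desaturates fatty acids, had −0.70 ± 0.29. Their summed level ran from 4862 to 7445 CPM in Csn2-high and from 4103 to 15243 CPM in Csn2-low libraries. KO 11, a Csn2-low library, had the highest Fasn, Scd1 and Lpl of the series, at 2862, 6091 and 743 CPM. The part of this library in the list median was not tested. Of the 16 tested genes of the prolactin and STAT5 pathway 10 were positive, with a median of 0.14. Stat5a, the main transducer of prolactin in the gland, ran from 67.0 to 198 CPM in Csn2-high libraries and from 50.1 to 105 CPM in Csn2-low libraries, with a log2 fold change of 0.44 ± 0.18.

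Several hormone-responsive genes were highest in WT 17. The list of 10 hormone-sensing luminal genes had a median log2 fold change of 0.76, 9 of 10 positive, and 3 higher with an unadjusted p under 0.05 (background 1.72%). Areg, the ligand that carries the oestrogen signal to stroma, ran from 1.30 to 196 CPM in Csn2-high and from 0.447 to 11.95 CPM in Csn2-low libraries. Calca, the calcitonin gene, ran from 0.115 to 236 CPM against 0.0365 to 1.42 CPM, and Wnt4, a progesterone target, from 1.92 to 156 CPM against 1.17 to 14.2 CPM. Tnfsf11 (RANKL), the paracrine signal downstream of progesterone, was at 207 CPM in WT 17 and at 0 to 5.99 CPM in the other Csn2-high libraries, against 0 to 1.76 CPM in Csn2-low libraries. For each of these 4 genes the highest of the 16 values was that of WT 17. Without WT 17 the log2 fold changes fell to 2.20 for Areg, against 3.28 with it, to 2.46 for Calca, against 5.39, to 1.17 for Wnt4, against 2.11, and to 2.34 for Tnfsf11, against 4.58.

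Markers of other cells did not pass either. The 11 tested T cell genes had negative log2 fold changes with a median of −1.11, and the 6 tested B cell genes a median of −1.20. The summed T cell level was 13.5 to 21.2 CPM in Csn2-high libraries and 14.2 to 145 CPM in Csn2-low libraries, so the medians (19.3 and 19.7 CPM) were close and the difference lay in a few Csn2-low libraries. Cd3d, a chain of the T cell receptor complex, was at 11.4 CPM in KO 11 and 9.04 CPM in KO 10 and at or below 1.53 CPM in the other Csn2-low libraries, against 0.349 to 1.22 CPM in Csn2-high libraries. Cr2 and Fcer2a of the lymph node list were also highest in KO 11 (15.7 and 24.9 CPM) and next in KO 10 (3.98 and 11.4 CPM). The summed adipocyte level ran from 104 to 1867 CPM in Csn2-high and from 25.3 to 4971 CPM in Csn2-low libraries. The part of other cells in the values above was not tested. Markers of skin and hair were uneven in both classes, with summed levels of 13.3 to 394 CPM in Csn2-high and 8.84 to 397 CPM in Csn2-low libraries. Krt6a and Sprr1a were highest in KO 12 of the Csn2-high class, at 72.7 and 66.6 CPM, and Krt1 and Krt10 in KO 1 of the Csn2-low class, at 100.3 and 139 CPM.

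On the low side the smallest p-values belonged to Ephx1, Slc19a2, Gm15510, Ccng1 and Add3. Ephx1, microsomal epoxide hydrolase, ran from 81.1 to 133 CPM in Csn2-high libraries (median 95.3) and from 92.6 to 246 CPM in Csn2-low libraries (median 156), with a log2 fold change of −0.65 ± 0.17. Slc19a2, a thiamine transporter, had −0.45 ± 0.12, and Ccng1, cyclin G1, a p53 target, had −0.47 ± 0.13. For Ephx1, Slc19a2, Gm15510 and Ccng1 none of the 8 Csn2-high values lay above the Csn2-low median, and for Add3, an adducin of the membrane skeleton, 1 did. These counts too follow in part from the choice by p.

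When the level of Csn2 replaced the classes, few genes passed at an adjusted p under 0.05. The slope on log2(Csn2 CPM + 1) over the 24 libraries called 23 of 18464 genes (0.125%), and had 1876 at an unadjusted p under 0.05 (10.2%). The 23 include Csn2, whose slope on its own level is fixed and no result, which leaves 22 genes, 13 rising with Csn2 and 9 falling. Csn1s1, a marker, was among the 13 and is only described. Csn1s2a rose by 0.81 on the log2 scale per unit of log2(Csn2 CPM + 1) (adjusted p = 1.42e-10, edgeR) and Csn1s2b by 0.46 (adjusted p = 7.88e-05). Atp7b, the copper transporter that moves copper into milk, rose by 0.64 (adjusted p = 0.0014). The others that rose were Gldc, Sftpd, Adam8, Muc4, Clu, Fkbp11, Gusb, Angptl4 and Mmp8, and all but Fkbp11 had their highest value in KO 7. The 9 falling genes, 6 of them keratin-associated protein genes of hair, were at 0 in 20 or 21 of the 24 libraries and highest in KO 1. All of these were named after their values were seen.

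Without KO 7 the slope over 23 libraries called 5 of 17351 genes (0.0288%), Csn2 on its own level again among them. The other 4 were Csn1s2a, Calca, Atp7b and Tph1. This edgeR fit had 2718 genes at an unadjusted p under 0.05 (15.7%), 1943 rising with Csn2 and 775 falling. Csn1s2a then rose by 0.57 per unit of log2(Csn2 CPM + 1) (adjusted p = 1.15e-04, edgeR). Atp7b rose by 0.71 (adjusted p = 0.0423), Tph1 by 0.93 (adjusted p = 0.0423) and Calca by 1.11 (adjusted p = 0.0142). Calca, Atp7b and Tph1 had their highest value of all libraries in WT 17. Csn1s2b, with a slope of −0.045, did not pass. In the 8 middle libraries, which the classes did not use, edgeR called 0 genes for the slope on Csn2, with 1765 of 16829 at an unadjusted p under 0.05, and DESeq2 called 292. There Csn1s2a had a slope of 0.46, Tph1 0.65 and Atp7b −0.050.

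Ranking the same tumours by Csn1s1 in place of Csn2 gave another picture. Only the count of calls by this ranking was listed as an alternative. The readings of its genes and lists below were not planned, and it gave more calls than ranking by Csn2 or Csn3. This ranking shares 6 high and 4 low libraries with the Csn2 classes, and so is no independent test of them. Csn1s1-high libraries were KO 7, KO 12, KO 2, KO 5, WT 17, WT 24, WT 22 and WT 23, and Csn1s1-low libraries were KO 4, KO 3, KO 10, KO 1, WT 20, WT 16, WT 13 and WT 15. The same test called 745 of 16372 genes (4.55%), which are 744 besides Csn1s1, the gene that set the classes. Of the 745, Csn1s1 included, 459 were higher (2.8%) and 286 lower (1.75%) in Csn1s1-high libraries, and 118 genes had classes that did not overlap (0.721%). At an unadjusted p under 0.05 there were 4240 genes (25.9%). The number of calls changed with single libraries. Leaving out KO 3, KO 4 or WT 20 left 1 call each, leaving out WT 17 left 7, WT 23 left 27, WT 22 left 97, WT 16 left 132, WT 13 left 200 and KO 10 left 210, while 842 were called without KO 7. At an unadjusted p under 0.05 there were still 3689 genes without KO 3, 3679 without KO 4 and 3533 without WT 20, against 4240 with each library in. Within each label alone, and for the difference between labels, the count was 0, with 2136, 2609 and 500 genes at an unadjusted p under 0.05. Ranking by Csn3 gave 68 calls, 57 higher and 11 lower.

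**Figure D3:**
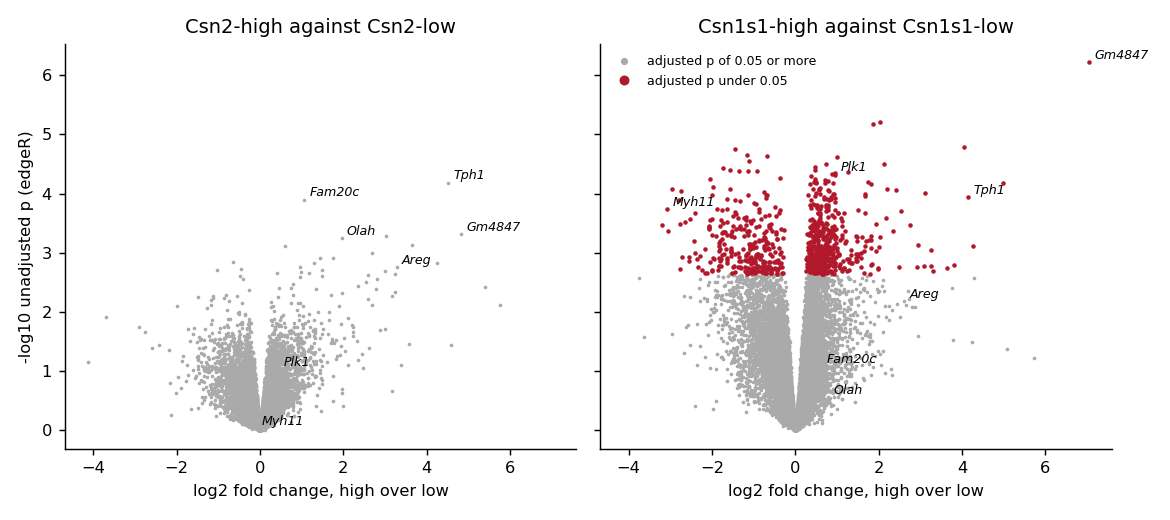
Log2 fold change, high over low, against −log10 of the unadjusted edgeR p for each tested gene, Csn2 classes on the left and Csn1s1 classes on the right, with the 3 casein markers left out and genes at an adjusted p under 0.05 in red. The Csn2 ranking has 0 red genes and the Csn1s1 ranking has 745 calls, Csn1s1 among them.

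Cell cycle genes were higher in Csn1s1-high tumours. Of 20 cell cycle genes, 16 were called higher in Csn1s1-high libraries (background 2.8%), with a median log2 fold change of 0.75 against 0.011 over all tested genes. Plk1, a mitotic kinase, ran from 37.4 to 58.6 CPM in Csn1s1-high and from 12.01 to 36.7 CPM in Csn1s1-low libraries and did not overlap (log2 fold change 0.96 ± 0.18, adjusted p = 0.0271, edgeR). Aurka, a kinase of the mitotic spindle, ran from 26.4 to 57.9 CPM against 16.9 to 25.3 CPM (0.87 ± 0.17, adjusted p = 0.0271, edgeR). Mcm2, a subunit of the replicative helicase, and Aurkb, the kinase of the chromosomal passenger complex, rose by 0.60 and 0.93. The count of 16 was 0 without KO 3, KO 4, WT 17, WT 20 or WT 23. It was 2 to 5 without WT 22, WT 16, KO 10 or WT 13, 10 without KO 12 and 15 without KO 7. In each of these fits 19 of the 20 were higher with an unadjusted p under 0.05, and the median was 0.66 to 0.81. The background for such a p was 14.3% with each library in. In these fits it ran from 1867 of 16555 genes without WT 23 to 2358 of 16582 without KO 7. Between the Csn2 classes 0 of the 20 were called, with a median of 0.27.

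Of 14 hypoxia and glycolysis genes, 4 were called higher in Csn1s1-high libraries (background 2.8%), Vegfa, Adm, Pgk1 and Ndrg1. The 14 had positive log2 fold changes, with a median of 0.85. Vegfa, the angiogenic growth factor, ran from 49.95 to 331 CPM in Csn1s1-high and from 21.4 to 48.6 CPM in Csn1s1-low libraries (log2 fold change 2.14 ± 0.38, adjusted p = 0.0271, edgeR), highest in WT 23 and KO 12. Pgk1, a glycolytic kinase, ran from 94.9 to 454 CPM against 72.3 to 110 CPM (1.20 ± 0.29, adjusted p = 0.0353, edgeR). P4ha2, which hydroxylates collagen prolines, and Rcor2, a corepressor, were among the smallest p-values, at 1.86 and 2.04. The hypoxia count was 0 without KO 3, KO 4, WT 17 or WT 20, 1 without KO 10, WT 16 or WT 23, and 2 without WT 22. It was 7 without KO 2 and 6 without WT 24.

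Of 11 tested basal and myoepithelial genes, 5 were called lower (background 1.75%), Acta2, Cnn1, Myh11, Mylk and Actg2, with a median of −1.39. The other 6 did not pass, and 2 of them, the basal keratins Krt14 (0.55) and Krt17 (1.11), had positive values. The 5 called genes encode the contractile apparatus, which vascular smooth muscle also makes. Myh11, smooth muscle myosin, ran from 4.23 to 53.0 CPM in Csn1s1-high libraries and from 36.9 to 537 CPM in Csn1s1-low libraries, fell by 3.07 ± 0.64 on the log2 scale (adjusted p = 0.0296, edgeR) and overlapped through KO 10 and WT 15. Cnn1, calponin, fell by 2.81 ± 0.56. The count of 5 was 0 without KO 3, KO 4, WT 17, WT 20, WT 22 or WT 23. Summed stromal levels overlapped between the classes and were not tested. Fibroblast genes ran from 772 to 3964 CPM in Csn1s1-high and from 1756 to 4858 CPM in Csn1s1-low libraries, and adipocyte genes from 25.3 to 1148 CPM against 408 to 1294 CPM. Their part in these results was not tested.

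**Figure D4:**
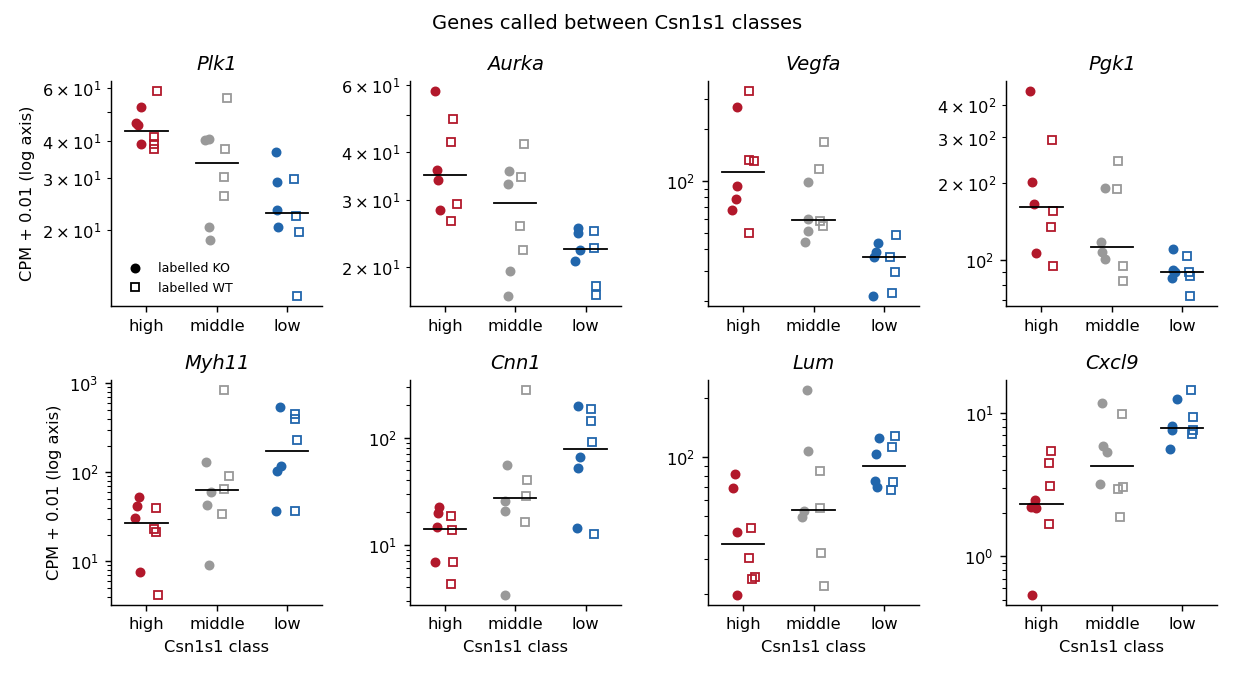
Level (CPM + 0.01, log axis) of 8 genes called between the Csn1s1 classes, in Csn1s1-high, middle and Csn1s1-low libraries, filled circles labelled KO and open squares labelled WT, with a bar at the median (n = 8). Plk1, Aurka, Vegfa and Cxcl9 do not overlap between high and low, and Myh11, Cnn1 and Lum do.

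Of 12 interferon-response genes, 2 were called lower (Ifit2 and Ifi44; background 1.75%), with a median of −0.91, and of 12 fibroblast genes 2 (Postn and Lum), with a median of −0.67. Cxcl9, an interferon-gamma-induced chemokine that draws T cells, ran from 0.532 to 5.42 CPM in Csn1s1-high libraries and from 5.59 to 14.4 CPM in Csn1s1-low libraries, without overlap (log2 fold change −1.75 ± 0.31, adjusted p = 0.0271, edgeR). None of the 11 tested T cell genes was called, though 7 were lower with an unadjusted p under 0.05 (background 11.6%), and of 12 adipocyte genes 0 were called and 10 were lower with such a p.

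Of the genes of milk secretion, 2 of 16 for lactose and transport were called higher between the Csn1s1 classes (background 2.8%), Slc30a2 (1.74 ± 0.33) and the glucose transporter Slc2a1 (1.03 ± 0.26), and 0 of 15 caseins and whey proteins. Csn1s2a had 5.08 ± 2.30 and Wap 2.11 ± 0.83, with adjusted p of 0.176 and 0.126 in the edgeR fit. The largest called rise was that of Gm4847, at 0.845 to 28.3 CPM in Csn1s1-high libraries against 0 to 0.271 CPM in Csn1s1-low libraries, where it had 0 to 8 reads a library, so its log2 fold change of 7.04 ± 0.90 depends on the prior count. It was called in each of the 16 fits that left out a library. Next among the called genes other than Csn1s1 came Atp7b (4.98), Fstl4 (4.26), Tph1 (4.13) and the imprinted gene Peg10 (4.06), called in 12, 7, 12 and 12 of those 16 fits. After them Nppc, Mab21l4, Gldc, Adm2 and Sftpd, with log2 fold changes down to 3.09, were called in 5, 6, 7, 5 and 4. Among the falls were Reln, the extracellular glycoprotein reelin (−3.21, called in 9 of 16), and Casq2, the calcium-binding calsequestrin of muscle (−2.97, called in 11).

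**Figure D5:**
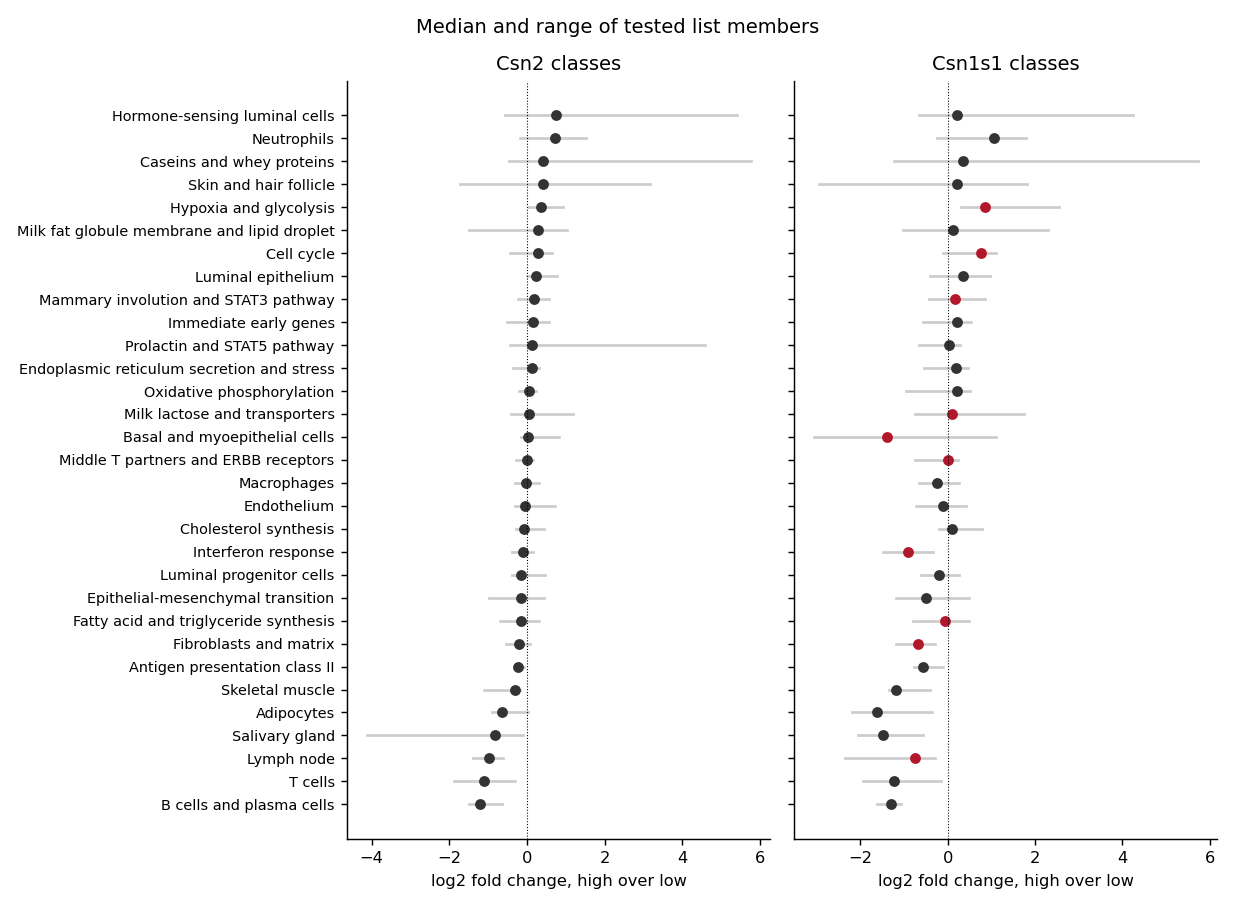
Median (point) and range (line) of the log2 fold changes, high over low, of the tested members of 31 gene lists, Csn2 classes on the left and Csn1s1 classes on the right, with red points for lists with at least 1 member called and a dotted line at the median of all genes. No point is red on the left, and on the right the basal and myoepithelial list stands at −1.39 and the cell cycle list at 0.75.

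The 8 libraries in neither Csn1s1 class were ranked with the others but left out of the contrast. They give a description, across genes that are not independent of each other. There 371 of 456 genes called higher had a positive slope on Csn1s1 (81.4%), and 104 of 286 called lower did (36.4%), against 44.2% of all 16283 genes in both fits. In these 8 libraries alone the test called 1 gene of 17111 (0.00584%), Csn1s1 itself, with 375 at an unadjusted p under 0.05 (2.19%). Myh11 had a slope of 0.72 there and Acta2 0.86, the reverse of their direction between the classes, while Vegfa had 0.54.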

How the data were processed

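Counts per gene of 24 tumour libraries were deposited as whole-number counts, made by the authors with featureCounts 2.0.0 on a GRCm39 RefSeq annotation, per the file headers. STAR and Subread are named in the submitters' processing notes, without versions. The recorded command has no strand option, so a read in 2 overlapping or antisense genes is not assigned by strand. The authors' own comparison table was not used. Of 46318 gene IDs, 44749 had a symbol in a RefSeq table of GRCm38.p6, which gave names and promoters.

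CPM is a count divided by the library total. Classes follow Csn2 CPM within each label. In R 4.3.3, edgeR 4.0.16 filtered genes by filterByExpr, took TMM factors and fitted a two-sided quasi-likelihood test with the label as block. P-values were adjusted by Benjamini-Hochberg over all tested genes, with a threshold of 0.05. The value after ± is the absolute log2 fold change divided by the square root of the quasi-likelihood F. It is an approximate standard error, worked back from the test, and not an interval. Csn2, Csn1s1 and Csn3 stayed in the fits, so counts of calls can include them, but as markers of the rankings they are described and no test of them is read as a result. Alternatives were DESeq2 1.42.0, limma 3.58.1 voom, RLE and upper-quartile scaling, scaling without milk genes, other filters, no block, 3 or 6 libraries a class, other rank genes, slopes on log2(CPM + 1) and leaving out each library. Scripts were tested on simulated data.

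Members, the 31 gene lists and the tests were chosen with earlier results of these data known. Named genes were, among genes called with and without KO 7 averaging 1 CPM or more, the 10 largest rises and falls and the 5 smallest p-values each way, then up to 4 members of each list by p and all milk genes. Where none was called, the 5 smallest p-values each way were named. The most alike of 132 pairs of libraries within a label, KO 5 and KO 6, still had a chi-square of 23.3 per degree of freedom, above sampling noise. Library totals ran from 18789250 to 38022182 counts, and intervals and floors cover counting error only. No batch is labelled.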

Additional observations from a re-analysis of the deposited data

Results flagged for a closer look

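Of 74 gene and class groups (37 genes, 8 libraries each, log2(CPM + 1) scale), 14 held a library whose gap to its nearest neighbour was above the critical share of the range, 0.526. Chance flags about 1 in 20 groups.

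In the Csn2-high class KO 7 stood apart upward for Csn1s2a (7571 CPM), Csn1s2b (212 CPM), Glycam1 (8892 CPM) and Cel (35.4 CPM). WT 17 stood apart upward for Tnfsf11 (207 CPM) and Calca (236 CPM). KO 12 stood apart downward for Add3 (54.7 CPM).

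In the Csn2-low class WT 23 stood apart downward for Csn3 (3500 CPM), Wap (0.729 CPM), Lalba (10.2 CPM) and Lao1 (0.328 CPM), and upward for Atp7b (3.86 CPM). KO 11 stood apart upward for Tnfsf11 (1.76 CPM) and KO 1 for Krt6a (6.68 CPM). WT 23 is a Csn2-low library that the Csn1s1 ranking puts in its high class.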

How the results depend on the processing

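The count of 0 genes between the Csn2 classes was also 0 under limma voom, the other scalings, filters and class sizes, without a block, with KO 7 left out before or after ranking, and in each fit that left out a library. It was 9 with DESeq2, 745 with classes by Csn1s1, 68 with classes by Csn3, 23 for the slope over 24 libraries and 5 without KO 7. DESeq2 called 50 genes within label KO, 7 within label WT, 23 for their difference and 292 for the slope in the middle libraries, where leaving out each library gave 0 to 5 (5 without WT 21). The 745 Csn1s1 calls became 2048 with DESeq2, 1123 with limma voom, 309 without a filter, 1210 for the slope over 24 libraries and 3241 without KO 7, and 1 to 974 when each library was left out. The cell cycle count of 16 was 10 without a filter. The causes were not tested.

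Named log2 fold changes that turned sign were, with classes by Csn3, Cel (−0.16), Btn1a1 (−0.78), Stat5a (−0.19), Tph1 (−0.23), Fam20c (−0.24), Tmprss6 (−0.53), Ephx1 (0.20), Areg (−1.39), Calca (−4.17), Wnt4 (−1.34), Scd1 (0.37), Sprr1a (−1.28), Vwf (−0.60) and Atp7b (−0.80). With classes by Csn1s1 they were Lalba (−0.21), Btn1a1 (−0.67) and Twist1 (0.060). Without KO 7 they were Csn1s2b (−0.23), Glycam1 (−0.21) and Lalba (−0.17), and with KO 7 left out before ranking −0.22, −0.39 and −0.19. For the slope over 23 libraries they were Csn1s2b (−0.045), Lalba (−0.038) and Btn1a1 (−0.14). With 6 libraries a class they were Lalba (−0.079) and Btn1a1 (−0.33), and for Lalba also −0.22 with 3 a class, −0.26 with voom and −0.17 to 0.58 when each library was left out, as were Csn1s2b at −0.23 to 2.95 and Glycam1 at −0.21 to 3.96.

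No paired analysis was possible because libraries labelled KO are numbered 1 to 12 and those labelled WT 13 to 24, with no number in common. Low Csn2 levels rest on few reads, so the order of the lowest libraries is not resolved at this depth.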
